A study of Mus musculus with 14 samples.

Results

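The genes described here encode the subunits of RNA polymerases I, II and III and the factors that place RNA polymerase I (Pol I) on ribosomal DNA. They were taken as all probe sets that name 1 gene alone, with a symbol that starts with Polr1, Polr2 or Polr3 or is Rrn3, Ubtf, Taf1a, Taf1b, Taf1c, Taf1d, Znrd1, Cd3eap or Twistnb. This gave 34 genes on 72 probe sets, of 18193 genes named alone and 45037 probe sets tested on the array. By role, 13 probe sets (6 genes) are of the Pol I core, 6 (2 genes) of subunits that Pol I and Pol III share, 13 (6 genes) of Pol I initiation factors, 6 (3 genes) of subunits common to all 3 enzymes, 9 (8 genes) of Pol II and 25 (9 genes) of Pol III.

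RNA was hybridised to Affymetrix mouse genome arrays from bone marrow erythroid cells of wild-type C57Bl/6 female mice aged 8 to 12 weeks, expanded ex vivo in SP34ex medium, which contains erythropoietin (EPO), stem cell factor and dexamethasone. Stage E2 cells came from day 3.5 by depleting lineage-marked (Lin+) and then Kit+ cells and selecting CD71+ cells, and stage E1 cells (CFUe-like progenitors, which depend strongly on EPO for survival) from day 3 by Lin+ depletion and Kit+ CD71+ selection. The paper's methods give the same day for both stages. All cells of both stages were held for 5.5 h without hematopoietic cytokines, in medium that per the paper's methods for stage E1 kept insulin and transferrin, and were then given EPO at 4 U/mL or none for 90 min. The 4 groups are E2 EPO (3 arrays), E2 no EPO (3), E1 EPO (4) and E1 no EPO (4), each labelled as biological replicates. The paper's methods call the E1 replicates independent, each taken with and without EPO, and whether those of E2 came from separate mice or cultures is not given in the sources used here. Where samples did not, the p-values measure only the spread between them.

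Each value is a log2 signal from which 1 constant per probe set had been subtracted, so no level can be read, nor whether a marker is near 0, and only differences between arrays are given. The constant lies nearer the E2 values, and the SD over all probe sets of an array was 0.259 to 0.295 in stage E2 and 0.633 to 0.736 in stage E1. In bulk RNA of this kind, fewer cells of a type and less RNA per cell cannot be told apart. Replicate arrays were tighter in stage E2 than in stage E1. The median SD over the 72 probe sets was 0.101 in E2 EPO, 0.0938 in E2 no EPO, 0.23 in E1 EPO and 0.241 in E1 no EPO. Known EPO response genes responded in both stages, with at least 1 probe set of each of Cish, Myc, Osm, Pim1, Podxl, Socs2 and Socs3 higher under EPO (limma, adjusted p under 0.05). The study reports several of these genes from the same E1 samples, so in that stage they check the labels and are not independent evidence. Markers shifted with stage. Of the erythroid markers, 9 of 11 probe sets were higher in E2 than in E1 under EPO and 10 of 11 without it, all 3 megakaryocyte markers (Gp9, Itga2b, Pf4) were higher in both, Kit and Gata2 were lower, and so was 1 of 6 lymphoid probe sets (Ptprc). Kit was itself used to select the cells of each stage, so its difference is no independent observation. Cd34, the other progenitor marker, did not pass (limma adjusted p = 0.353 under EPO and 0.0586 without it). Among the myeloid markers, 4 of 7 probe sets were lower in E2 in both comparisons (Mpo, Elane, Ngp and 1 of Csf1r), with medians over the list of -2.97 under EPO and -3.43 without it. The largest differences were those of Mpo (-9.29 under EPO and -9.47 without) and Elane (-6.77 and -7.01). The remaining myeloid probe sets did not pass.

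Pol I transcribes the large ribosomal RNA precursor in the nucleolus, Pol II makes messenger RNA, and Pol III makes transfer RNA and the smallest ribosomal RNA. Erythroid progenitors divide and grow quickly, and later erythroblasts shrink, condense their nuclei and turn their output toward haemoglobin. Each enzyme is built around a pair of large catalytic subunits, which other subunits frame, and some of those are used by more than 1 of the enzymes.

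Promoter windows from RefSeq (GRCm38.p6) run from 250 bases before to 50 bases after each gene's start, 300 bases in all, and 30 of the 34 genes had one. The genes without one are Polr2d, Polr2g, Polr3a and Polr3d. Windows of 4 genes that the results turn on are printed, 5′ to 3′ on the gene's strand, with base 251 as the first transcribed base. Polr1b and Rrn3 passed with EPO, and Polr3g and Polr3gl are alternative forms of 1 Pol III subunit. Capitals mark each match, on either strand, to 4 motifs, the E-box CACGTG (bound by Myc among others), the ETS motif CCGGAAG, the TATA box TATAAA and the STAT motif TTCNNNGAA.
Polr1b, chr2:129100746-129101045, plus strand: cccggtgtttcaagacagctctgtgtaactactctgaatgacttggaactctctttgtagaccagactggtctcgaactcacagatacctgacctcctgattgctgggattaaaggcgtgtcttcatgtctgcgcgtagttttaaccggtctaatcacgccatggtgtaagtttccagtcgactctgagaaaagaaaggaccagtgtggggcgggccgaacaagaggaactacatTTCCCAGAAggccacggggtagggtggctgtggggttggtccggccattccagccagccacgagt
Rrn3, chr16:13780449-13780748, plus strand: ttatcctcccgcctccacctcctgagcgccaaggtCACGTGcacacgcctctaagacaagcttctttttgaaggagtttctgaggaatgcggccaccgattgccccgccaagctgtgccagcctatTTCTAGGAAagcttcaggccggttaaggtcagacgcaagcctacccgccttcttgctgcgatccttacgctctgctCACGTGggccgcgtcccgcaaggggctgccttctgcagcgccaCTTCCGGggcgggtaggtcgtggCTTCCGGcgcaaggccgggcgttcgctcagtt
Polr3g, chr13:81710964-81711263, minus strand: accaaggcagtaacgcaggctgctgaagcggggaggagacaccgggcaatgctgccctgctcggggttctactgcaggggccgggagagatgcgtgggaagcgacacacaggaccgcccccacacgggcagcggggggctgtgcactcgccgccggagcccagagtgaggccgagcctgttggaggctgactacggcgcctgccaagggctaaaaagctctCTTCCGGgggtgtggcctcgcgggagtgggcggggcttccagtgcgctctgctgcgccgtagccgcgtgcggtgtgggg
Polr3gl, chr3:96594132-96594431, minus strand: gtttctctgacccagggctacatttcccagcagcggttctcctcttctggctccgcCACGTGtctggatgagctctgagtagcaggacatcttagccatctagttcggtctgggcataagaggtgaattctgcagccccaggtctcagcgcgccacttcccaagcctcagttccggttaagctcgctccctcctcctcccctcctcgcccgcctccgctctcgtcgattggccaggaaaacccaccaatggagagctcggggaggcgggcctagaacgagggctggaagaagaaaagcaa
The Polr1b window held 1 STAT match, TTCCCAGAA at bases 236 to 244. That of Rrn3 held 5 matches, namely E-boxes at bases 36 to 41 and 203 to 208, a STAT match, TTCTAGGAA, at 127 to 135, and ETS matches at 246 to 252 and 269 to 275. Polr3g had an ETS match at bases 222 to 228 and Polr3gl an E-box at bases 57 to 62. None of the matches overlapped. Over the 30 genes with a window, the ETS motif was in 40% (12 genes), against 9.93% of all 27025 genes with a window and 12.9% of the 17492 protein-coding ones. For the E-box these shares were 20%, 8.09% and 8.91%, for the STAT motif 20%, 9.55% and 8.92%, and for the TATA box 6.67%, 15.7% and 14.8%. The 6 genes with a STAT match were Polr1b, Polr2b, Polr2f, Polr3c, Rrn3 and Taf1b. Twistnb and Taf1a, which also rose and passed with EPO, each in 1 stage, had a window without a STAT match. A match is a description of the sequence and not evidence that a factor binds there.

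The clearest difference among these genes was between the stages. With EPO, 39 of the 72 probe sets (54.2%, 24 genes) were lower in E2 than in E1 and 3 were higher (limma, adjusted p under 0.05). Over all 45037 probe sets, 12% were lower and 10.3% higher. Without EPO, 32 of the 72 (44.4%, 21 genes) were lower in E2 and 6 were higher, against 10.8% lower and 10.1% higher over all probe sets. The median difference between E2 and E1 over the 72 was -0.58 with EPO and -0.40 without, beside -0.027 over all probe sets in each. Many probe sets on the array hardly varied. Among the 22518 with the larger SD over the 14 arrays, which include 65 of the 72, the shares called lower in the same fits were 58.5% of the polymerase probe sets and 21.2% of all with EPO, and 49.2% and 19.1% without. Stage goes with culture day and with the cell selection, and these cannot be told apart. The shifts of the marker genes given above accompany every stage difference, and their part in it was not tested.

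**Figure D1:**
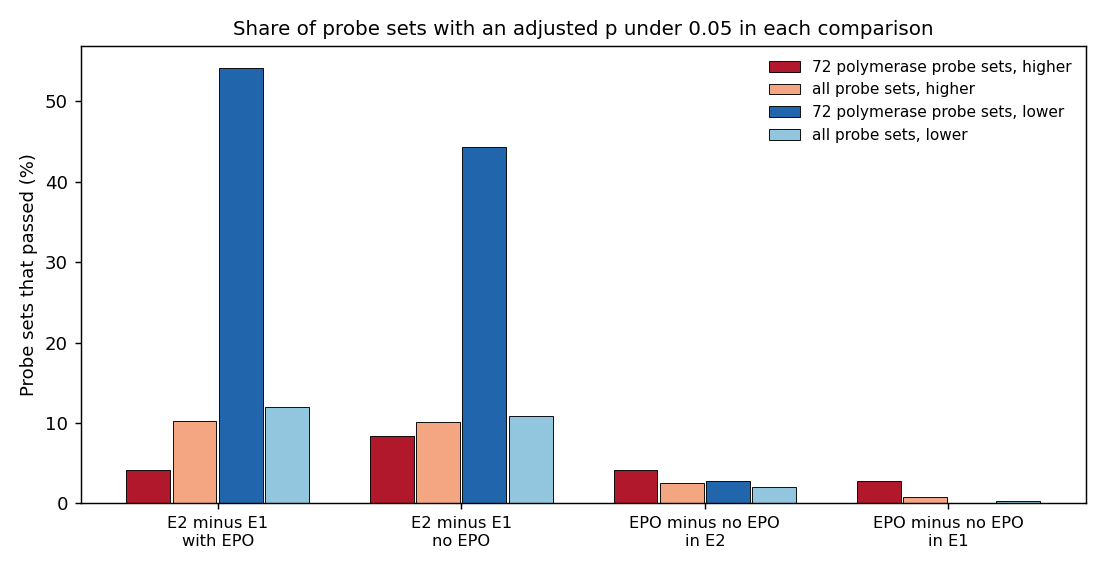
Share of probe sets (y axis, %) that passed limma's test (adjusted p under 0.05) in each of 4 comparisons (x axis), for the 72 polymerase probe sets (dark bars) and all 45037 (light bars), higher in red and lower in blue. The polymerase shares lower in stage E2 are 54.2% with EPO and 44.4% without, above 12% and 10.8% of all probe sets, while the shares in the EPO comparisons are all under 5%. The stage comparisons come from 1 fit of all 14 arrays and the EPO comparisons from a fit within each stage. With all 14 arrays in 1 fit, not plotted, EPO calls 11 of the 72 in E1 and 2 in E2. That fit calls 1063 higher and 632 lower of all in E1, and 611 and 388 in E2.

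Pol I core subunits had the lowest medians of the 6 roles in both stage comparisons, and all 6 genes were lower in E2. Of their 13 probe sets, 12 were lower in E2 with EPO (median -1.67) and 10 without (median -1.23), and none was higher. Polr1a encodes the largest, catalytic subunit. Its probe set 1417775_at read -0.19, -0.041 and 0.0069 in the E2 EPO arrays, against 1.99, 1.68, 2.06 and 2.13 in E1 EPO. Without EPO the E2 values were -0.0069, 0.019 and -0.16, against 1.61, 1.70, 1.72 and 1.95 in E1. The stages did not overlap, and the difference was -2.04 with EPO (4.11-fold lower in E2, SE 0.11, limma adjusted p = 2.54e-07) and -1.79 without (3.46-fold lower, SE 0.11, adjusted p = 6.89e-07). In all, 4 of the 5 Polr1a probe sets passed with EPO and 2 without.

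Probe set 1460215_at of Polr1a gave the largest stage difference of the 72 under EPO. It read -0.25, -0.25 and -0.34 in E2 EPO, against 2.38, 2.94, 1.92 and 3.57 in E1 EPO, a difference of -2.99 (7.92-fold lower, SE 0.34, limma adjusted p = 6.21e-05). Without EPO it was 0.11, -0.0039 and 0.0039 in E2 and 1.48, 1.17, 2.08 and 2.05 in E1, a difference of -1.66 (adjusted p = 0.00428). In both conditions every E2 array lay below every E1 array. The other Polr1a probe sets are less even. The difference of 1447597_at was -0.13 with EPO (adjusted p = 0.0428), that of 1447598_x_at was -0.30 (0.116), and 1456066_a_at read 0.066 in 1 E1 EPO array and between 2.12 and 2.50 in the other 3.

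Polr1b, the second-largest subunit, which completes the Pol I active site, was lower in E2 and higher under EPO. Its values were 0.22, 0.40 and 0.33 in E2 EPO and -0.85, -0.65 and -0.84 in E2 no EPO. In stage E1 they were 2.37, 2.35, 2.64 and 2.26 with EPO and -0.22, 0.53, 1.08 and 0.42 without. Neither stage showed overlap between EPO and no EPO arrays, and the E1 EPO arrays stood above all others. The stage difference was -2.09 under EPO (4.26-fold lower in E2, SE 0.23, limma adjusted p = 4.83e-05) and -1.23 without it (2.35-fold lower, SE 0.23, adjusted p = 0.00233).

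Cd3eap and Polr1e form the Pol I dimer that works in initiation and elongation. Cd3eap read 0.16, -0.078 and 1.14 in E2 EPO, against 2.51, 2.30, 2.94 and 2.47 in E1 EPO. In the arrays without EPO it read -0.28, -0.48 and -0.44 in E2, against 0.078, 0.59, 1.53 and 0.91 in E1. The stages did not overlap, and E2 was lower by a log2 difference of -2.15 with EPO (4.44-fold, SE 0.34, limma adjusted p = 0.00076) and of -1.17 without (2.26-fold, SE 0.34, adjusted p = 0.0316). The difference without EPO did not pass when E1 no EPO replicate 3 or 4 or any one of the 3 E2 no EPO arrays was left out (adjusted p 0.0599 to 0.0993), or when only the arrays of the pair of groups were fitted (0.0684). Both Polr1e probe sets were lower in E2, by differences of -1.71 and -1.58 with EPO and of -1.34 and -1.27 without.

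Twistnb, a subunit of the Pol I stalk, and Znrd1, the subunit that aids transcript cleavage, were lower in E2 as well. Twistnb probe set 1452852_at averaged 0.087 ± 0.167 in E2 EPO and 1.76 ± 0.27 in E1 EPO, and -0.41 ± 0.15 in E2 no EPO and 1.19 ± 0.07 in E1 no EPO (SD, n = 3 E2 and 4 E1 arrays). These are 3.19-fold and 3.03-fold lower signals in E2 (limma adjusted p = 4.42e-06 with EPO and 6.9e-06 without), and all 3 Twistnb probe sets passed in both conditions. The weakest of them, 1428634_at without EPO (-0.54, adjusted p = 0.0396), did not pass with the arrays centred on their medians (0.0507), with only the arrays of the pair of groups (0.16) or without E1 EPO replicate 2 or 3, E1 no EPO replicate 1, 2 or 4, E2 EPO replicate 1 or 3 or E2 no EPO replicate 2 or 3 (0.0518 to 0.16).

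Znrd1 averaged -0.081 ± 0.072 in E2 EPO and 1.40 ± 0.20 in E1 EPO, and 0.055 ± 0.118 in E2 no EPO and 1.41 ± 0.16 in E1 no EPO (SD, n = 3 E2 and 4 E1 arrays). It was 2.80-fold and 2.57-fold lower in E2 (limma adjusted p = 2.78e-06 with EPO and 6.02e-06 without). Its difference with EPO was -0.14 in E2 (adjusted p = 0.495) and -0.0097 in E1 (adjusted p = 1).

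**Figure D2:**
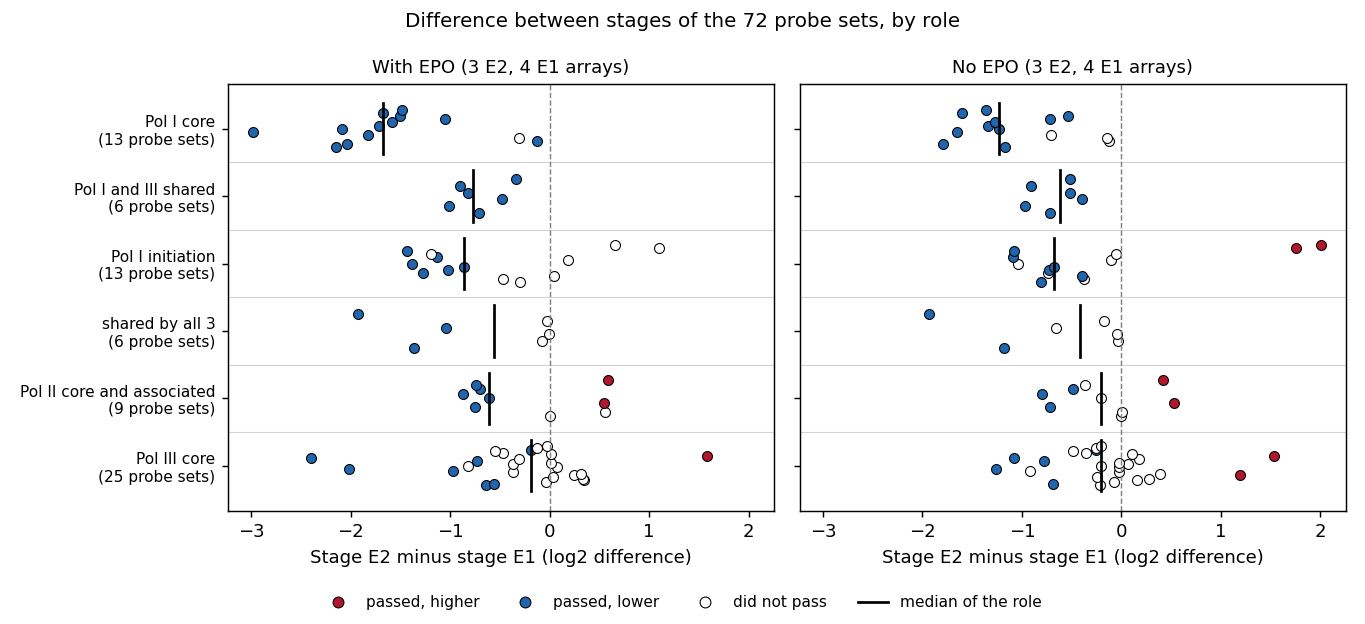
Log2 difference between stage E2 and stage E1 (x axis) of each of the 72 probe sets (points), with EPO (left) and without (right), grouped by role (y axis). Points are red or blue where limma's adjusted p was under 0.05, and black bars are role medians. All 13 Pol I core points lie below 0 in both panels, with medians of -1.67 and -1.23, while Pol III core points spread on both sides with medians of -0.19 and -0.21 (-0.13 and -0.035 after quantile normalization, not plotted).

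Polr1c and Polr1d, which pair to form the assembly platform of both Pol I and Pol III, were lower in E2 on all 6 of their probe sets in both conditions, with differences from -1.01 to -0.34 under EPO and from -0.96 to -0.40 without it. After quantile normalization 4 of the 6 passed with EPO and all 6 without. Polr1c probe set 1449648_s_at read -0.21, -0.059 and -0.16 in E2 EPO, against 1.06, 1.01, 0.79 and 0.61 in E1 EPO (2.02-fold lower, limma adjusted p = 4.5e-05). Polr1d probe set 1451120_at read 0.03, -0.0087 and -0.10 in E2 EPO and 0.51, 0.82, 0.96 and 1.19 in E1 EPO (1.86-fold lower, adjusted p = 0.00327). The stages did not overlap for either.

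The initiation factors of Pol I did not move as one, with a median over their 13 probe sets of -0.86 with EPO (-0.54 after quantile normalization). Ubtf, which binds and bends ribosomal DNA, went against the core subunits in the arrays without EPO. Probe set 1460304_a_at read 0.53, 0.89 and 0.79 in E2 no EPO, against -1.65, -1.44, -1.13 and -0.85 in E1 no EPO, with no overlap. This is 4.01-fold higher in E2 (log2 difference 2.0, SE 0.37, limma adjusted p = 0.00205), and 1453097_a_at was 3.39-fold higher (1.76, SE 0.37, adjusted p = 0.00554). Under EPO the same probe sets read 0.25, 0.24 and -0.52 and 0.20, -0.15 and 0.072 in E2, with E1 spread widely, from -1.36 to 0.27 and from -1.85 to -0.13. Those differences, 0.66 and 1.10, did not pass (adjusted p = 0.218 and 0.0589), though both passed without E1 EPO replicate 4 (adjusted p = 0.0447 and 0.00883). Whether the stage difference of Ubtf depends on EPO is the interaction tested further on, which it did not pass.

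Taf1a, Taf1b, Taf1c and Taf1d belong to the selectivity factor that recognises the ribosomal DNA promoter, and Rrn3 joins the polymerase to it. With EPO, Taf1c and 5 of 7 Taf1d probe sets were lower in E2, and without it Rrn3, Taf1b and 4 of 7 Taf1d probe sets. Rrn3 was 1.76-fold lower in E2 without EPO (-0.81, SE 0.22, limma adjusted p = 0.0203), a call lost without E2 no EPO replicate 1 or 3 (adjusted p = 0.059 and 0.0778). Under EPO its difference of -0.30 did not pass (adjusted p = 0.321). Taf1a did not pass in either condition (-0.47, adjusted p = 0.0806, and -0.37, adjusted p = 0.152), although it did under EPO without E1 EPO replicate 4 (0.00698).

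Among the subunits found in all 3 polymerases, 1 probe set per gene carried the stage difference. Polr2h read 0.15, -0.079 and 0.079 in E2 EPO, against 1.61, 2.19, 1.95 and 2.16 in E1 EPO. Its arrays without EPO read -0.64, -0.43 and -0.39 in E2, against 1.49, 1.52, 1.35 and 1.43 in E1. The gap between the stages was wide in both, with E2 3.80-fold lower under EPO (limma adjusted p = 1.05e-06) and 3.81-fold lower without it (1.17e-06). Polr2e probe set 1417138_s_at averaged -0.12 ± 0.11 in E2 EPO and 1.24 ± 0.10 in E1 EPO (SD, n = 3 E2 and 4 E1 arrays), 2.57-fold lower (adjusted p = 1.35e-07), and was 2.26-fold lower without EPO (4.12e-07), while its other 2 probe sets were almost flat. Polr2f probe set 1415754_at was 2.06-fold lower with EPO (-1.04, adjusted p = 0.0111). Without EPO its difference of -0.65 did not pass (adjusted p = 0.0947), and it passed without E1 no EPO replicate 1 (0.0241) or E1 EPO replicate 2 (0.0234).

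Pol II subunits had a median stage difference of -0.61 with EPO and -0.20 without. The largest subunit, Polr2a, did not pass in either stage comparison. Its variable probe set 1426242_at read 0.21, -0.17 and 0.63 in E2 EPO, against 0.10, -0.46, -0.49 and -0.47 in E1 EPO, with overlap (difference 0.56, limma adjusted p = 0.101), and this passed without E1 EPO replicate 1 (0.0419) or E2 EPO replicate 2 (0.047). Without EPO its difference was 0.0029 (adjusted p = 0.993). Polr2b, the second-largest subunit, was lower in E2, at 0.0086, -0.10 and 0.036 in E2 EPO against 0.72, 0.64, 0.76 and 0.79 in E1 EPO (1.68-fold, adjusted p = 1.12e-05), and by 1.64-fold without EPO (1.76e-05). Polr2g, of the detachable stalk, was 1.83-fold lower with EPO (adjusted p = 2.82e-07) and 1.74-fold lower without (5.86e-07). Polr2i was lower in both conditions. Polr2d and Polr2j passed with EPO (-0.61 and -0.74) and did not without it (-0.20 and -0.37).

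The other 2 Pol II genes that passed were higher in E2. Polr2c, an assembly subunit, read 0.043, 0.15 and 0.029 in E2 EPO, against -0.65, -0.42, -0.32 and -0.49 in E1 EPO. Without EPO it read -0.0047, 0.075 and 0.12 in E2 and -0.44, -0.40, -0.51 and -0.50 in E1. The stages did not overlap (1.46-fold higher, limma adjusted p = 0.000116 with EPO, and 1.44-fold, 0.00016 without). Polr2m, which binds the assembled enzyme and is not a core subunit, was 1.51-fold higher in E2 with EPO (0.59, SE 0.13, adjusted p = 0.00523). Its difference of 0.42 without EPO (adjusted p = 0.0365) was lost with only the arrays of the pair of groups (0.0571) and without E1 no EPO replicate 3 or 4, E2 no EPO replicate 2 or 3 or any one E2 EPO array (0.0501 to 0.132).

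Of the 25 Pol III probe sets, 7 (6 genes) were lower and 1 higher in E2 with EPO, and 5 (5 genes) were lower and 2 higher without it, so most did not pass. After quantile normalization 3 were lower and 2 higher with EPO, and 6 lower and 3 higher without, with medians of -0.13 and -0.035. The sharpest contrast lay between Polr3g and Polr3gl, paralogs that occupy the same place in the Pol III subcomplex that opens the promoter. Polr3g read 0.015, -0.26 and 0.15 in E2 EPO, against 2.39, 2.72, 2.01 and 2.34 in E1 EPO, and was 5.26-fold lower in E2 (log2 difference -2.39, SE 0.33, limma adjusted p = 0.000238). Polr3gl read -0.05, 0.14 and 0.22 in E2 EPO, against -1.72, -1.72, -1.03 and -1.44 in E1 EPO, and was 3.00-fold higher in E2 (1.59, SE 0.31, adjusted p = 0.00278). No array of one stage overlapped the other for either gene.

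Without EPO, Polr3g read 0.15, -0.27 and -0.081 in E2, against 1.07, -0.015, 1.53 and 1.47 in E1, with 1 E1 array inside the E2 range. The difference of -1.08 (2.11-fold lower, SE 0.33, limma adjusted p = 0.0369) did not pass when only the arrays of the pair of groups were fitted (0.148), nor without E1 no EPO replicate 1, 3 or 4, E1 EPO replicate 4, E2 EPO replicate 1 or any one E2 no EPO array (0.0503 to 0.13). Polr3gl read 0.083, 0.14 and 0.047 in E2 no EPO, against -1.38, -2.36, -0.72 and -1.31 in E1 no EPO (2.89-fold higher, 1.53, SE 0.31, adjusted p = 0.00375), and it passed under every alternative tried.

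Polr3e, a subunit that Pol III does not share, was lower in E2 on probe set 1429456_a_at (-2.02 with EPO, limma adjusted p = 6.52e-05, and -1.26 without, 0.00206) and not on 1453147_at, which was nearly flat. Polr3c, which sits beside Polr3g and Polr3gl in the enzyme, was higher in E2 without EPO on 1451658_a_at, at 0.95, 1.10 and 1.09 in E2 against -0.15, -0.64, -0.085 and 0.29 in E1 (2.29-fold, adjusted p = 0.00354). With EPO its difference was 0.24 (adjusted p = 0.439). For the catalytic subunits, Polr3a was lower on 2 of 3 probe sets with EPO and 1 of 3 without, and no Polr3b probe set passed (differences from -0.24 to 0.34). The Polr3a probe set 1434453_at, at -0.64 with EPO (adjusted p = 0.027), was lost without E1 EPO replicate 1 or 2 or E2 EPO replicate 2 or 3 (0.0525 to 0.115) and after quantile normalization, with a difference of -0.27 (0.366).

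**Figure D3:**
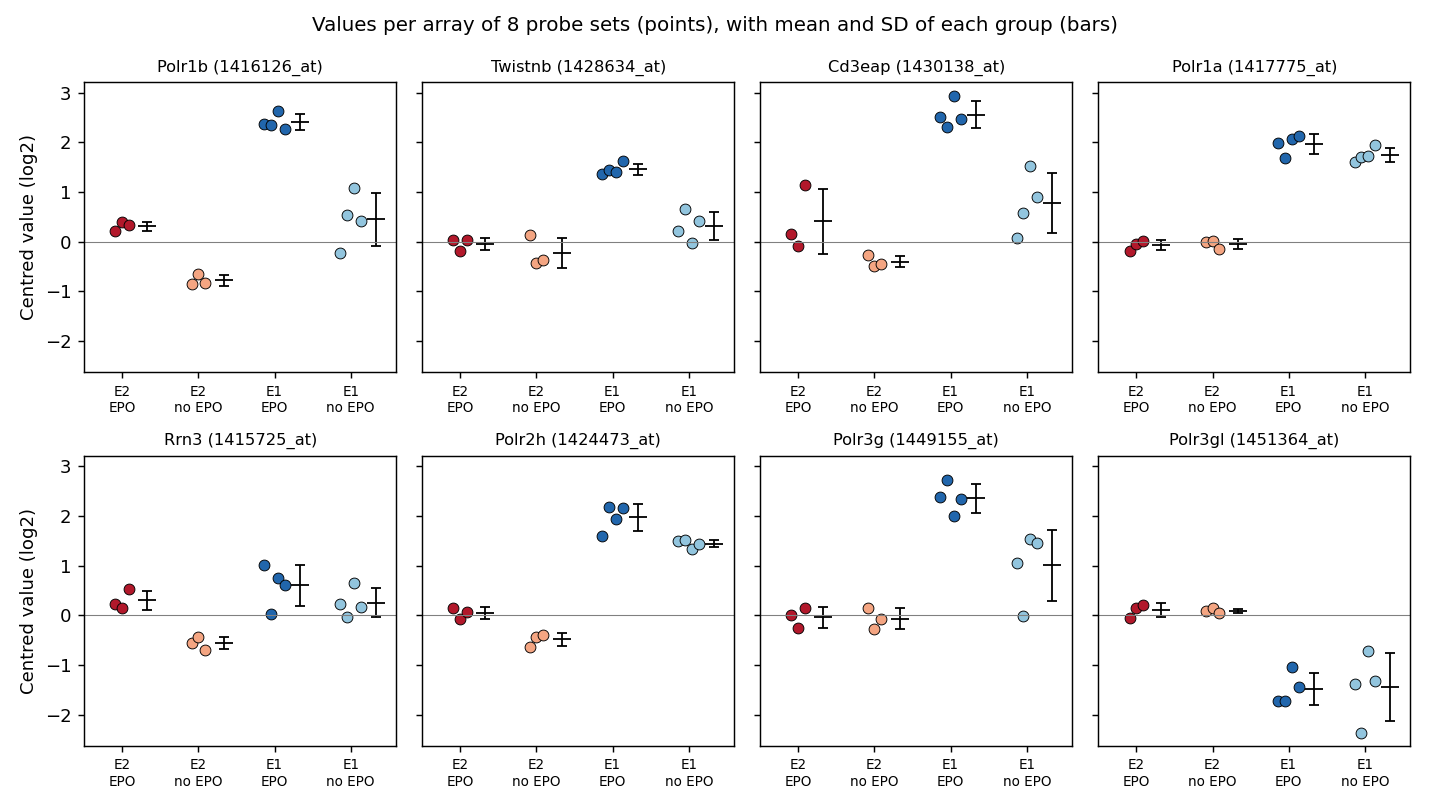
Centred log2 value (y axis) of 8 probe sets in each of the 14 arrays (points), by group (x axis, E2 EPO, E2 no EPO, E1 EPO and E1 no EPO), with the mean and SD of each group beside the points. Polr1b, Polr1a, Polr2h and Polr3g have their highest mean in E1 EPO, with Polr3g at 2.01 to 2.72 there against -0.26 to 0.15 in E2 EPO, and Polr3gl runs the other way.

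Few of these probe sets passed the test with EPO. In stage E2, 3 of 72 were higher and 2 lower with EPO than without, against 2.54% and 2.08% of all probe sets, and in stage E1, 2 of 72 (2.78%) were higher and 0 lower, against 0.804% and 0.36% of all (limma, adjusted p under 0.05). At an unadjusted p under 0.05, 15 were higher and 8 lower in E2 and 20 higher and 2 lower in E1, where 7.81%, 8.66%, 5.02% and 3.82% of all probe sets did so. With the methods' t-test, adjusted in the same way, the counts in E1 were also 2 higher and 0 lower. Median differences over the 72 were 0.013 in E2 and 0.18 in E1. The Pol I core had a median of 0.18 in E2 and 0.94 in E1, and 11 of its 13 probe sets had a difference above 0 in E1. After quantile normalization the medians of the core were 0.47 in E2 and 0.61 in E1, and those over the 72 were 0.034 in E2 and 0.086 in E1. These EPO comparisons use the same arrays as the stage comparisons above.

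Polr1b, whose arrays are given above, was the 1 gene called in both stages. It rose with EPO by 1.09 in E2 (2.13-fold, SE 0.08, limma adjusted p = 0.0055) and by 1.95 in E1 (3.86-fold, SE 0.26, adjusted p = 0.0245). The study itself lists Polr1b as raised by EPO in stage E1, so its rise in that stage is not independent evidence. In E1 the call was lost with the replicate number as a block (adjusted p = 0.0965) and without any one E1 EPO array or E1 no EPO replicate 2 or 4 (0.0591 to 0.0921), with the difference between 1.87 and 2.0 throughout.

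Twistnb probe set 1428634_at rose with EPO in E1. It read 1.37, 1.44, 1.39 and 1.63 in E1 EPO, against 0.22, 0.65, -0.025 and 0.41 in E1 no EPO, with no overlap (2.20-fold, log2 difference 1.14, SE 0.15, limma adjusted p = 0.0205). The call was lost with the replicate block (0.0988) and without E1 EPO replicate 2, 3 or 4 or E1 no EPO replicate 1 or 4 (0.0535 to 0.0752). In E2 the same probe set read 0.025, -0.19 and 0.03 with EPO and 0.13, -0.42 and -0.36 without, which overlap (0.18, adjusted p = 0.72). The other 2 Twistnb probe sets did not pass in either stage.

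Some other Pol I and Pol III subunits, several of them singled out after their values were seen, had no overlap between the E1 groups but did not pass. The share of all probe sets without such overlap was not computed, so a lack of overlap here is not evidence of an EPO response. Cd3eap, at 2.51, 2.30, 2.94 and 2.47 in E1 EPO against 0.078, 0.59, 1.53 and 0.91 in E1 no EPO, differed by 1.78 (3.44-fold, SE 0.31, limma adjusted p = 0.0592). It passed without E1 no EPO replicate 3 (0.0386), with array weights (0.0119), with all 14 arrays in 1 fit (0.00943) and among the most variable probe sets (0.0155). With the replicate block it did not pass (0.11). The fit of all 14 arrays takes 1 spread for both stages, and the E2 arrays were the tighter ones. Over all probe sets, the fit of stage E1 alone called 362 higher and 162 lower with EPO. Array weights called 1128 and 762, all 14 arrays in 1 fit 1063 and 632, and the most variable probe sets 599 and 240. The replicate block called 44 and 17. A pass under the settings that called more is thus not shown to be particular to these genes. Polr1e probe set 1435057_x_at, at 1.60, 1.54, 1.59 and 1.63 against 0.62, 0.13, 1.04 and 0.79, differed by 0.94 (adjusted p = 0.0805). Polr3e probe set 1429456_a_at, at 1.80, 2.26, 2.08 and 2.11 against 0.46, 0.16, 1.21 and 1.11, differed by 1.33 (adjusted p = 0.0807). These Polr1e and Polr3e probe sets passed with array weights (0.0312 and 0.031) and with all 14 arrays in 1 fit (0.0164 and 0.005). Among the most variable probe sets they passed as well (0.0312 and 0.0245). Polr1d probe set 1448287_at, at 0.94, 0.67, 0.97 and 0.80 against 0.51, 0.19, 0.48 and 0.35, differed by 0.46 (adjusted p = 0.107) and passed with the replicate number as a block (0.0294), with array weights (0.0186) and with all 14 arrays in 1 fit (0.00821). Polr3g, with 1.35 in E1, had a wider spread (adjusted p = 0.215). It passed with all 14 arrays in 1 fit (0.0313) and not with the replicate block (0.48), and in E2 it differed by 0.034 (0.937). Polr2h differed by 0.53 in each stage (adjusted p = 0.0543 in E2 and 0.172 in E1), and in E1 it passed without E1 EPO replicate 1 (0.024), with array weights (0.0186) and with all 14 arrays in 1 fit (0.0304). With the replicate block it passed in neither stage (0.204 in E2 and 0.319 in E1). After quantile normalization its difference was 1.27 in E2, which passed (0.0413), and 0.25 in E1 (0.278), and the E2 difference also passed with array weights (0.0385) and among the most variable probe sets (0.0199). Of the initiation factors, Taf1d had the largest E1 difference, 1.64 on probe set 1452987_at, which did not pass. That probe set passed with array weights (0.0081), with all 14 arrays in 1 fit (0.0322) and without E1 EPO replicate 1 (0.00473). The E1 differences of the 7 Taf1d probe sets ran from -0.16 to 1.64, and their mean passed with genes as the unit (0.56, 0.0147).

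Rrn3, 1 of the Pol I initiation factors, rose with EPO in E2. Its values were 0.24, 0.16 and 0.53 in E2 EPO, against -0.54, -0.44 and -0.69 in E2 no EPO, with no overlap (1.82-fold, log2 difference 0.87, SE 0.12, limma adjusted p = 0.0303). In E1 they were 1.01, 0.026, 0.76 and 0.62 with EPO and 0.22, -0.026, 0.66 and 0.16 without, which overlap (0.35, adjusted p = 0.949). The E2 call was lost in 5 of the 6 fits that left out 1 array, all but that without E2 EPO replicate 3 (0.0592 to 0.0964), and with all 14 arrays in 1 fit (0.107).

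The other E2 calls were small and less stable. Taf1a read 0.012, -0.013 and -0.025 in E2 EPO, against -0.13, -0.12 and -0.10 in E2 no EPO, a rise of 0.11 (SE 0.01, limma adjusted p = 0.025) between very tight groups. Polr2g read -0.10, -0.16 and -0.12 in E2 EPO, against -0.012, 0.042 and 0.012 in E2 no EPO, and fell by 0.14 (SE 0.02, adjusted p = 0.0442). Polr1a probe set 1460215_at, at -0.25, -0.25 and -0.34 against 0.11, -0.0039 and 0.0039, fell by 0.32 (SE 0.04, adjusted p = 0.0297), while its E1 difference of 1.01 did not pass (adjusted p = 0.494). Leaving out any one of the 6 E2 arrays ended each of these 3 calls, with an adjusted p from 0.055 to 0.103 for Taf1a, from 0.0838 to 0.129 for Polr2g and from 0.057 to 0.0887 for Polr1a.

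**Figure D4:**
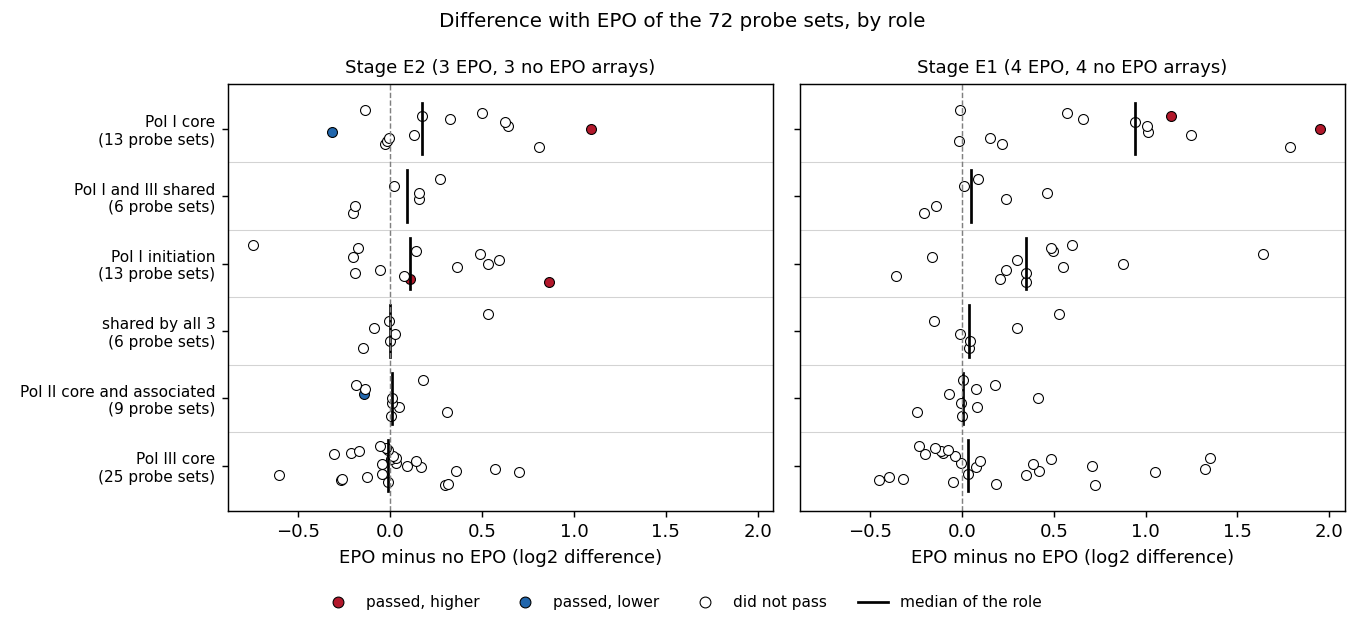
Log2 difference between EPO and no EPO arrays (x axis) of each of the 72 probe sets (points) in stage E2 (left) and stage E1 (right), grouped by role (y axis). Points are red or blue where limma's adjusted p was under 0.05, and black bars are role medians. The Pol I core median is 0.18 in E2, with 1 point higher and 1 lower, and 0.94 in E1, with 2 higher, values that quantile normalization, not plotted, brings to 0.47 and 0.61.

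None of the 72 probe sets passed the test of whether the EPO difference itself differed between stages (limma interaction, E2 minus E1, 0 higher and 0 lower). Over all probe sets 0.18% were higher and 0.235% lower, and at an unadjusted p under 0.05 the counts among the 72 were 1 higher and 9 lower, beside 3.24% and 3.95% of all. For all 13 Pol I core probe sets the signed EPO difference in E2 minus that in E1 was below 0, with a median of -0.33 and a range from -1.33 to -0.0059, but after quantile normalization it was above 0 for 6 of the 13 and the median was -0.020. For Polr1b the difference between stages was -0.86 (adjusted p = 0.512), for Twistnb 1428634_at -0.96 (0.153), for Polr3g -1.32 (0.44), for Rrn3 0.52 (0.937) and for Ubtf 1460304_a_at -1.35 (0.524). After quantile normalization the value for Polr1b was 0.96 (0.138), and those for Rrn3 (1.60, 0.0137) and Polr2h (1.02, 0.0121) passed. That setting widens the E2 values and narrows those of E1. The spread of an array depends here on the constant subtracted from each probe set, which lies nearer the E2 values. The setting therefore cannot decide whether EPO differences differ between stages. Over all probe sets it called 949 higher and 769 lower, against 81 and 106 before it. So a call in one stage and not in the other is not shown to be a difference between the stages. Polr1a probe set 1456066_a_at did pass without E1 EPO replicate 1 (-1.68, adjusted p = 0.0333).

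Quantile normalization gives all arrays 1 distribution, which widens the E2 values and narrows those of E1, so sizes moved with it while the direction of every named call was kept. Since a constant had been subtracted from each probe set, the sizes after it are not better estimates than those before it. The rise of Polr1b with EPO became 2.37 in E2 (limma adjusted p = 0.00978) and 1.41 in E1 (0.0452), so that its difference between stages turned to 0.96, which did not pass (0.138). Its stage difference became -1.28 with EPO and -2.24 without. Rrn3 rose by 1.85 with EPO in E2 (adjusted p = 0.0228), its stage difference without EPO became -1.54, and its interaction passed at 1.60 (0.0137). With EPO in E2, Taf1a became 0.24, Polr1a 1460215_at -0.73 and Polr2g -0.26, of which the first and second passed (adjusted p = 0.00389 and 0.0189) and that of Polr2g did not (0.108). In the stage comparison with EPO, Cd3eap became -1.31, Twistnb 1452852_at -1.10 and Polr2m 0.97, and in that without EPO, Twistnb 1428634_at -0.81, Polr2m 0.73 and Polr3c 1.87. The Pol I core had 12 of 13 probe sets lower in E2 with EPO, with a median of -1.15, and 12 were lower without EPO, with a median of -1.33. Over the 72 probe sets, 31 were lower and 6 higher in E2 with EPO, and 35 lower and 8 higher without. Over all 45037 probe sets, the same fits called 5523 lower and 5730 higher with EPO, and 5762 lower and 5819 higher without.

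Genes that work with these enzymes were counted in the same fits. Of 36 probe sets (12 genes) of Pol I regulators and nucleolar partners, 19 were lower and 4 higher in E2 with EPO, with a median of -0.83. Without it 16 were lower and 1 higher, with a median of -0.46. Lower in both were probe sets of Tcof1, Npm1, Fbl and Ncl, all proteins of ribosome synthesis, and of Ddx21, Nolc1 and Nop56. Top1 was lower with EPO only. Baz2a, Kdm2a and Sirt7 had a probe set higher in E2 with EPO, and Kdm2a had one without it. With EPO, Ddx21, a nucleolar RNA helicase, rose in both stages on 1 of 2 probe sets (1.14 in E2, limma adjusted p = 0.0251, and 0.89 in E1, 0.0178), with 0.24 and 0.13 on the other. Nolc1 rose on 1 of 3 probe sets in E2 (1.14, adjusted p = 0.0291), while its E1 differences, from 1.49 to 2.05, did not pass (adjusted p from 0.0758 to 0.208). Nop56 rose on 1 of 2 in E1 (1.01, adjusted p = 0.00435), with 0.47 in E2 on that probe set (0.146). Of 37 probe sets (17 genes) of Pol III initiation and processing factors, 11 were lower and 6 higher in E2 with EPO, and 7 lower and 5 higher without. With EPO in E2, 2 of their genes rose, Bdp1 on 1 of 2 probe sets (0.42, adjusted p = 0.039) and Gtf3c4 on both of its probe sets (1.0 and 0.92), and Maf1, the repressor of Pol III, fell by 0.37 on 1 of 3 probe sets (adjusted p = 0.0398). With EPO in E1, 0 of the 37 passed in limma, and 4 were higher and 3 lower at an unadjusted p under 0.05.

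Maf1 was higher in E2 than in E1 on 2 probe sets, with differences of 0.55 and 0.67 under EPO and 0.64 and 0.85 without, and the third, at -0.21 and -0.76, did not pass. Polymerase assembly factors (33 probe sets, 14 genes) had 12 lower and 2 higher in E2 in each condition, including Gpn1, Ruvbl1 and Ruvbl2, and with EPO 0 passed in limma in either stage. At an unadjusted p under 0.05, 1 of these was higher and 5 lower in E2, and 2 were higher and 3 lower in E1. For Pol II general factors (33 probe sets, 17 genes), 11 were lower and 2 higher in E2 with EPO and 7 lower and 1 higher without, while with EPO in E2 Ccnh was higher on 1 of 3 probe sets and Gtf2b lower, and in E1 Gtf2e1 was higher on 1 of 2. The shares over all probe sets are those given above, 12% lower and 10.3% higher in E2 than in E1 with EPO and 10.8% and 10.1% without, and, for EPO against no EPO, 2.54% higher and 2.08% lower in E2 and 0.804% and 0.36% in E1. At an unadjusted p under 0.05 the shares for EPO were 7.81% and 8.66% in E2 and 5.02% and 3.82% in E1.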

How the data were processed

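Expression was measured on 14 Affymetrix mouse arrays. Scans went through GCOS, and the authors then used GeneSpring GX for GC-RMA, per the paper's methods and the submitters' notes. The log2 values deposited are relative, each probe set being shifted by a constant of its own. In 78% of probe sets the values nearest 0 on either side were symmetric (within 2e-06), as after subtraction of a median over a larger set of arrays, which leaves differences between arrays as they were. This and the log base are inferred, since no source used here states them. GC-RMA scales arrays to each other, so a change in total RNA per cell would not show, and probe sets ending in _s_at or _x_at can detect more than 1 transcript.

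Gene names came from the platform annotation, and 34945 of the 45037 probe sets name 1 gene. Groups followed the labels. Within each stage EPO was compared with no EPO by limma (version 3.58.1, under R 4.3.3, with version 1.17.8 of data.table), two-sided with Benjamini-Hochberg adjustment over all 45037 probe sets. These fits did not pair the arrays, and in E1 the pairing by number entered only as the alternative replicate block. The 64 control probe sets were left out. A fit of all 14 arrays on 4 group means gave the stage comparisons and the interaction. A probe set passed at an adjusted p under 0.05, and the calculations were tested on simulated data. The number of arrays limits the precision, and no sequencing depth applies. Members and lists were chosen with earlier results of these data known.

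Named probe sets are those past the test with EPO or in the interaction, the 5 largest rises and falls past it in each stage comparison, and the most variable probe set of each catalytic, shared or alternative subunit, Rrn3 and Ubtf. Polr1d 1448287_at, Polr1e, Polr2d, Polr2i, Polr2j, Polr3d, Polr3e, Polr3k, Taf1d 1452987_at, the other Polr1a probe sets and the genes of the related lists that are given with values were singled out after their values were seen. In E1, deviations from the group mean correlated between arrays of equal number (0.195, 0.187, 0.173 and 0.152), so the numbers were taken to pair them. Numbers 1 and 2 matched each other best, but E1 EPO replicate 3 and E1 no EPO replicate 4 correlated most with each other. The pairing of numbers 3 and 4 is therefore uncertain. The paper's methods describe each E1 replicate as taken with and without EPO, and the labels do not say that equal numbers mark it. Those of E2 (-0.0609 to -0.0155) and across stages (-0.126 to 0.0586) did not. Alternatives were quantile normalization, median-centred arrays, a mean-variance trend with robust shrinkage, array weights, the 22518 probe sets with the largest SD, a replicate block, other sets of arrays, the methods' t-test, genes as the unit and each array left out in turn. Polr2k and Polr2l have no probe set that names them alone.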

Additional observations from a re-analysis of the deposited data

Results flagged for a closer look

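Of 52 groups of 4 arrays tested for a value far from the rest, 5 held one, and chance gives about 1 in 20. The gap of that array to its nearest neighbour took up most of the group's range in each. Polr2a (1426242_at) read 0.0954 in E1 EPO replicate 1, above the other 3 arrays of its group. Polr3b (1443494_at) read -1.43 in E1 EPO replicate 2 and -0.207 in E1 no EPO replicate 2, both below the rest of their groups. Polr3c (1451658_a_at) read -0.345 in E1 EPO replicate 2, below the others. Taf1a (1419702_at) read -0.0129 in E1 EPO replicate 4, below the others. Groups of 3 arrays, all in stage E2, were not tested.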

How the results depend on the processing

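Of the calls of named probe sets, all alternatives kept 18 of 19 in the stage comparison with EPO and 16 of 21 in that without, but 1 of 5 for EPO in E2 (Polr1b) and 0 of 2 for EPO in E1, and no call changed sign. The 38 polymerase probe sets called between stages without EPO became 23 (most variable probe set) or 24 (mean) with genes as the unit, and the 42 with EPO became 27 or 26, with 34 in place of 72 features. Over all 18193 genes, those fits called 2652 or 2606 lower and 2561 or 2471 higher in E2 without EPO. With EPO they called 2851 or 2850 lower and 2493 or 2474 higher. For EPO in E2 the count of 5 became 9 with genes by mean, 2 with all 14 arrays in 1 fit and 1 to 2 with 1 array left out. For EPO in E1 the count of 2 became 12 with array weights, 11 with all 14 arrays, 6 with genes by mean, 5 among the most variable probe sets and 0 to 5 with 1 array left out. It was 0 without E1 EPO replicate 2, 3 or 4 or E1 no EPO replicate 4, 1 without E1 no EPO replicate 1 and 5 without E1 EPO replicate 1. With genes by mean, calls over all genes were 810 higher and 763 lower for EPO in E2 and 322 and 146 in E1. The interaction count of 0 became 2 after quantile normalization (Rrn3 and Polr2h, both with a larger EPO difference in E2, adjusted p = 0.0137 and 0.0121 in limma) and 0 to 1 with 1 array left out. The causes of these changes were not tested.

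With the replicate number as a block, EPO in E1 called 1 of the 72 (Polr1d, 1448287_at, 0.46, limma adjusted p = 0.0294), against 2 without it, and EPO in E2 called 1 (Polr1b), against 5. The interaction with the block called 1 (Polr1d, lower in E2), against 0. Numbers in E2 and across stages did not pair the arrays, and there the block ended 4 named calls of EPO in E2 and, between stages, those of Polr2m, Polr3g and Twistnb 1428634_at without EPO and Polr3a 1434453_at with EPO. Over all probe sets, calls for EPO in E1 (362 higher, 162 lower) became 44 and 17 with the block, 1128 and 762 with array weights, and 1063 and 632 with all 14 arrays and 599 and 240 among the most variable. For E2 (1146 and 935) they were 264 and 153 with the block and 611 and 388 with all 14 arrays and 1877 and 1697 among the most variable, and for the interaction (81 and 106) 949 and 769 after quantile normalization, 388 and 481 with array weights and 20 and 24 with the block. Array weights gave 12964 lower between stages with EPO, against 5405, and 7962 without EPO, against 4872, and leaving out E1 no EPO replicate 1 gave 9682 with EPO. With 1 array left out, the whole-array counts spanned 150 to 365 higher and 55 to 156 lower for EPO in E1, 504 to 843 and 330 to 546 in E2, and 39 to 114 and 51 to 217 for the interaction.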

Other observations

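Probe sets that name a second gene beside a shared polymerase subunit were outside the comparisons. One that names Usp50 and Polr2l (1428296_at) read 0.17, 0.21 and 0.22 in E2 EPO and 0.041, 0.082 and 0.17 in E2 no EPO. In stage E1 it read 0.32, -0.35, 0.83 and 1.05 with EPO and -0.98, -0.37, -0.041 and 0.19 without. One that names LOC100862456 and Polr2k (1452596_at) averaged 0.030 in E2 EPO, -0.12 in E2 no EPO, 0.58 in E1 EPO and 0.49 in E1 no EPO.

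The 6 Polr3k probe sets were mostly weakly variable, and 1 of them (1440735_at) was lower in E2 in both stage comparisons, by -0.19 with EPO (limma adjusted p = 0.0479) and -0.25 without (0.0122). Polr3d probe set 1424565_at lay between 0.55 and 1.79 in E1 EPO and between -0.02 and 0.10 in E1 no EPO, yet did not pass (1.05, limma adjusted p = 0.157). Its E2 EPO arrays read 0.40, 0.21 and 1.48 against -0.013, 0.0081 and -0.015 in E2 no EPO (0.70, adjusted p = 0.47). Among the 72 probe sets 6 had an SD under 0.1 over the 14 arrays.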
